A study of Bos taurus with 6 samples.

Results

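The transcripts of the proteasome, the large protease that degrades ubiquitin-tagged proteins, were examined in bovine blastocysts of low and of high cryosurvival. The genes were taken by name, as every gene of the deposited table whose symbol is PSM, then a letter from A to G, then a digit. This rule found 44 of the 9537 genes in the table. Of these, 16 encode the 20S core (7 alpha subunits, 7 constitutive beta subunits and 2 inducible beta subunits). A further 23 carry regulatory names: 6 ATPases and 11 other subunits of the 19S cap, 3 factors that help to assemble the base of that cap (PSMD5, PSMD9 and PSMD10) and 3 activators (PSME1, PSME2 and PSME4). The other 5 were the regulator PSMF1, the core assembly factors PSMG1, PSMG2 and PSMG3, and PSMC3IP. PSMC3IP fits the name rule without being a proteasome subunit: its product works with recombinases in meiotic recombination, as known from mouse and human. The symbols PSMA8, PSMB8, PSMB11, PSME3, PSME3IP1 and PSMG4 also fit the rule in the RefSeq gene table and were not analysed here.

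The low cryosurvival group (NV_1 to NV_3 in the titles) and the high cryosurvival group (V_1 to V_3) had 3 RNA-seq libraries each, named below as low or high library 1, 2 and 3. Both groups were whole blastocysts made in vitro, in the standard bovine embryo culture medium SOFaaci, and graded by survival after vitrification, rapid cooling without ice crystals. The labels used here give no breed, sex, embryo age or number of embryos per library, nor the time of RNA sampling relative to vitrification. They do not state separate cultures for the libraries either, so the p-values measure only the spread between these libraries, which may be technical. In whole embryos, fewer cells of a type and less RNA per cell cannot be told apart.

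The proteasome is a barrel, the 20S core, with a cap at its ends. The core stacks outer rings of alpha subunits, which gate the entry, around inner rings of beta subunits, which hold the cutting sites. The 19S cap binds ubiquitin chains, removes them, and unfolds and feeds the substrate with a ring of ATPases, while the PSME activators open the gate without ATP. Early embryos use this system to clear maternal proteins and damaged proteins, and in mammalian cells a shortage of proteasome activity turns on the subunit genes together through the transcription factor NFE2L1.

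Levels are in CPM, read counts scaled to a common library size that the authors adjusted. The values are not divided by transcript length, so levels are compared between libraries and not between genes. The libraries held 14651477 to 19467022 reads in the table, the fewest in low library 2, and the lowest value of a member rested on 92 reads. Low library 2 stood apart from the other 5. A length index was made from genes outside the proteasome, by subtracting the median log2(CPM + 1) of 62 genes of short transcripts from that of 36 genes of long transcripts, both sets drawn up from general knowledge since no lengths were at hand. It was -1.86 in low library 2, 0.54 and 0.29 in low libraries 1 and 3, and -0.37 to 0.004 in the high libraries. Results are therefore given with and without low library 2.

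Markers of the blastocyst's cell types were measured in both groups, and limma called none of them with all libraries, but several differed in level. Of the 8 trophectoderm markers, 1 had a higher and 7 a lower mean log2 level in low, with a median difference of -0.26. Their summed CPM, most of it KRT8 and KRT18, was 27027 to 37668 in low and 31669 to 35104 in high libraries. GATA2 (-0.41), TFAP2A (-0.67) and DAB2 (-0.46) had every low library below every high one, as did 10.6% of all genes. Of the 5 measured inner cell mass and epiblast markers, 3 were higher and 2 lower in low. Their summed CPM, most of it POU5F1, was 807 to 1126 in low and 892 to 1023 in high libraries. NANOG had 22.1, 12.2 and 14.3 CPM in low, against 47.3, 31.1 and 37.6 CPM in high, without overlap (log2 difference -1.23, limma adjusted p = 0.164). Without low library 2, limma called NANOG and DPPA3 lower and LIN28A higher in low, and GATA2 lower. That fit called 13.6% of all genes, 8.15% as higher and 5.48% as lower in low. Of the 7 measured hypoblast markers, 4 were higher and 3 lower in low, with a median difference of 0.47 and summed CPM, most of it FN1, of 1527 to 3034 in low and 2271 to 2962 in high libraries. GATA4 (0.47) and RSPO3 (0.88) had every low library above every high one, as did 10.4% of all genes. HNF4A (-0.46) had every low library below, as did 10.6%. Without low library 2, COL4A1 and RSPO3 were called higher in low. Of 10 listed cumulus and granulosa cell markers, 4 were measured. Their summed CPM, most of it HSD3B1, was 283 to 354 in low and 300 to 402 in high libraries. HSD3B1 alone had 245 to 311 CPM in low and 260 to 357 CPM in high. Of these 4 markers, FSHR had every low library below every high one, at 7.06 to 8.14 CPM against 8.63 to 9.04 CPM. CD68, the 1 haematopoietic marker measured of 4 listed, lay at 4.81 to 7.14 CPM in low and 9.07 to 11.1 CPM in high, without overlap. Limma called CD68 lower in low without low library 2 (adjusted p = 0.0374). The part of cell make-up in the results on the proteasome was not tested.

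No proteasome gene passed the test between the groups. Limma on log2(CPM + 1) called 0 of the 44 members at an adjusted p of 0.05, and 0.0% of all 9537 genes. At an unadjusted p below 0.05 there were 3 members (6.82%), against 12.0% of all genes. They were PSMD13 and PSMD2, higher in low as were 6.27% of all genes, and PSMC3IP, lower in low as were 5.7% of all genes. Voom on the recovered reads also called 0 members. In the authors' deposited table the lowest adjusted p of a member was 0.193, for PSMC3IP, and 1.2% of all genes in that table had one below 0.05. The 3 low libraries all lay above or all below the 3 high libraries in 8 members (18.2%), against 21.0% of all genes, a share close to that background. Of these, 7 members had low above high (15.9%, against 10.4% of all genes) and 1 had high above low (2.27%, against 10.6%). The 7 were PSMD1, PSMD2, PSMD7, PSMD13, PSMD14, PSMC1 and PSMA1.

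**Figure D1:**
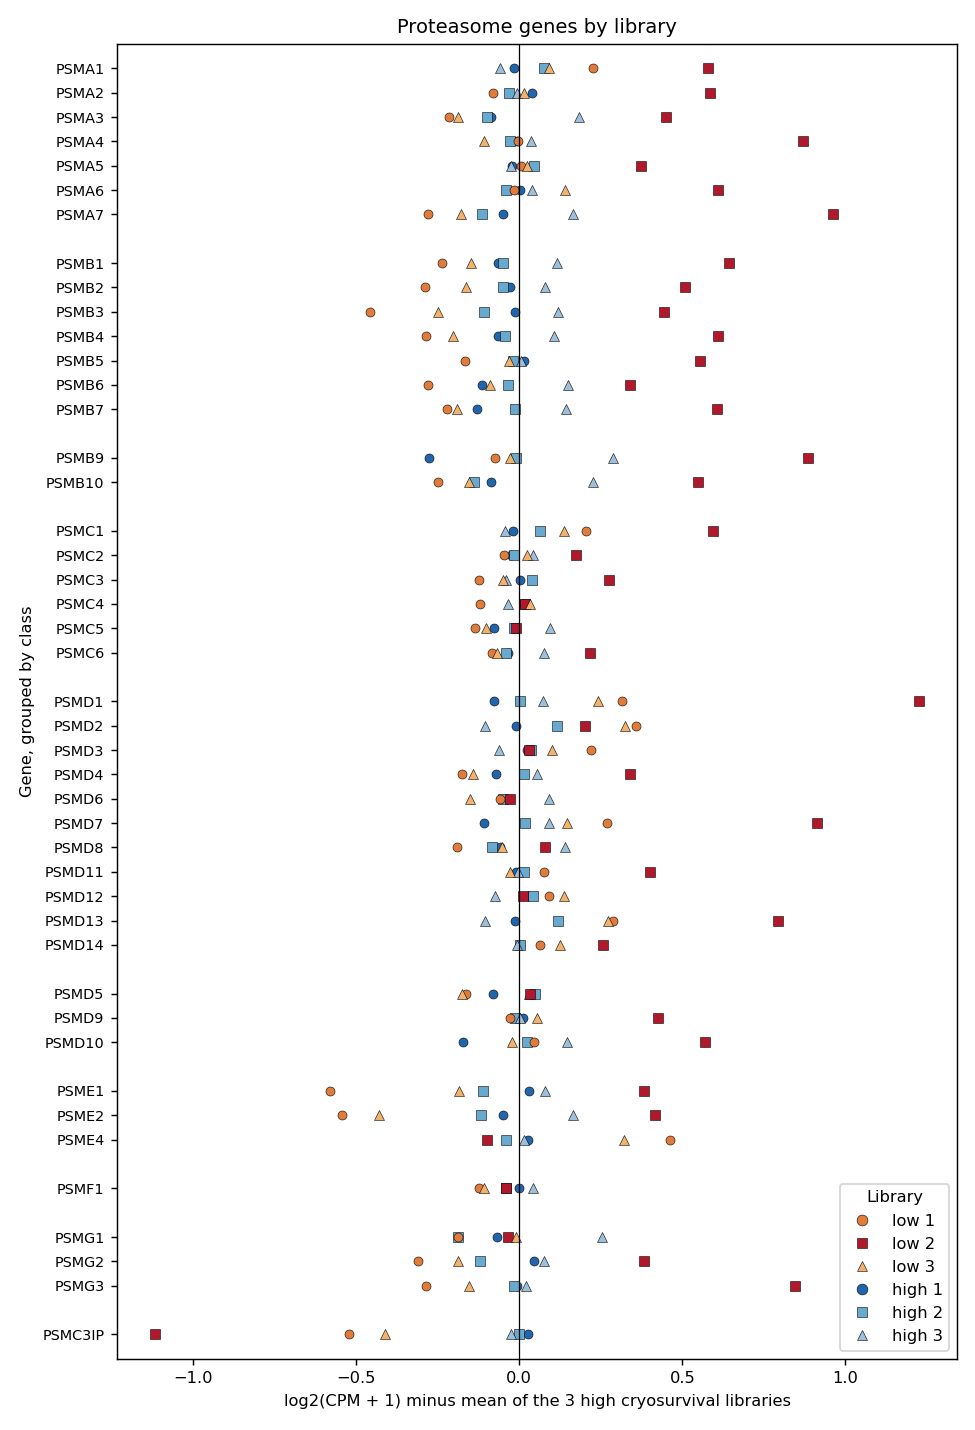
Each row is 1 gene, ordered by class from the alpha ring down to PSMC3IP; points show log2(CPM + 1) in each library minus the mean of the 3 high cryosurvival libraries (x axis, log2 units). Low library 2 (dark red squares) is the highest point for all 16 core subunits, while in PSMD1, PSMD2, PSMD7, PSMD13, PSMD14, PSMC1 and PSMA1 every low library lies right of every high library.

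Of the 17 subunits of the 19S cap, 6 had every low library above every high one, where 10.4% of all genes did, and none had the reverse. Of its 11 non-ATPase subunits, 9 had a higher mean log2 level in low and 2 a lower one, with a median difference of 0.15 log2, and they held 5 of those 6. PSMD1, the largest scaffold subunit of the cap base, had 311, 586 and 296 CPM in low libraries 1, 2 and 3, against 237, 250 and 263 CPM in high libraries 1, 2 and 3. Low library 2 was far above the rest, but the other low libraries also exceeded each high library. PSMD1 averaged 398 ± 163 CPM in the low and 250 ± 13.0 CPM in the high libraries (SD, n = 3 each). The log2 difference of 0.59 (SE 0.27) had a limma adjusted p of 0.453, and without low library 2 it was 0.28 (adjusted p = 0.084).

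PSMD2, the other scaffold of the cap base, did not share the excess of low library 2. It had 368, 330 and 359 CPM in low, against 285, 311 and 266 CPM in high. Low library 2 was here the lowest of its group. Its log2 difference was 0.29 (SE 0.12, limma adjusted p = 0.411) with all libraries and 0.34 (adjusted p = 0.0637) without low library 2. PSMD13, a lid subunit, had 170, 242 and 168 CPM in low, against 138, 151 and 129 CPM in high. The low libraries 1 and 3 were nearly equal and lay above all high libraries. Its log2 difference was 0.45 (SE 0.18, limma adjusted p = 0.375), and 0.28 without low library 2 (adjusted p = 0.0986).

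PSMD7, the lid partner that holds the deubiquitinase, had 119, 186 and 109 CPM in low, against 91.0, 99.3 and 104 CPM in high. Its groups were separated only narrowly, by low library 3 and high library 3. The log2 difference was 0.44 (SE 0.22, limma adjusted p = 0.502), and 0.21 without low library 2 (adjusted p = 0.188). PSMD14, the deubiquitinase itself, was chosen for description after its values were seen. It had 130, 148 and 135 CPM in low, against 124, 124 and 123 CPM in high. Its high libraries agreed to within a CV (SD as a share of the mean) of 0.391%, the lowest of all members, and no low library overlapped them. A CV from 3 libraries is itself imprecise. The log2 difference of PSMD14 was 0.15 (SE 0.11, limma adjusted p = 0.726), and 0.09 without low library 2 (adjusted p = 0.449).

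**Figure D2:**
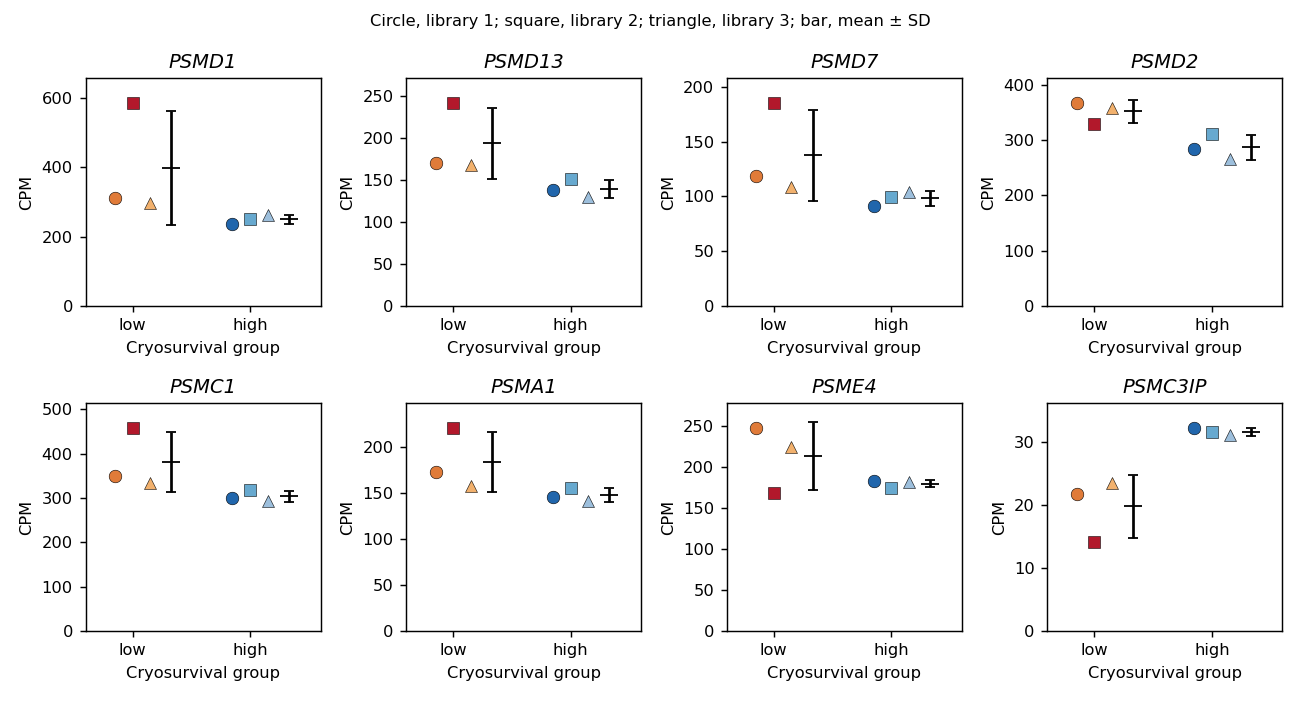
CPM (y axis, from 0) of 8 genes in the 3 low and the 3 high cryosurvival libraries, with the mean and SD of each group as a bar. PSMD1, PSMD13, PSMD7, PSMC1 and PSMA1 are highest in low library 2, PSMD2 and PSME4 are highest in low library 1, and PSMC3IP is lowest in low library 2.

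The remaining non-ATPase subunits had mean log2 levels in low close to those in high. Single libraries still lay apart, as low library 2 did in PSMD4, with 356 CPM against 268 to 292 CPM in high. PSMD3, PSMD11, PSMD12 and the ubiquitin receptor PSMD4 had log2 differences from 0.01 to 0.15, and PSMD6 and PSMD8 had -0.08 and -0.05. Their limma adjusted p values were between 0.804 and 0.993. The 95% intervals of these 6 differences reached at most 0.50 above and 0.39 below 0, so differences within those bounds could not be resolved here.

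The 6 ATPases of the cap, PSMC1 to PSMC6, had a median log2 difference near 0. It was 0.03, and turned to -0.0004 when all libraries were set to the same total of reads. PSMC1 had 349, 458 and 334 CPM in low, against 299, 317 and 294 CPM in high, and every low library lay above every high one. The log2 difference of PSMC1 was 0.31 (SE 0.15, limma adjusted p = 0.513), and 0.17 without low library 2 (adjusted p = 0.213). The other 5 ATPases ranged in log2 difference from -0.08 (PSMC5) to 0.05 (PSMC2). Of the base assembly factors, PSMD9 and PSMD10 had differences of 0.15 and 0.20 and PSMD5 one of -0.10.

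In the 20S core the low libraries differed widely from each other. All 16 core members were highest in low library 2, a property of 34.5% of all genes, while the regulatory members had it in 14 of 23 (60.9%). Outside the proteasome, 61 of the 62 genes of short transcripts had it (98.4%), and 0 of the 36 of long transcripts. The median log2 difference of the core was 0.10 with all libraries and -0.19 without low library 2, with 14 of 16 members higher in low in the first case and 13 of 16 lower in the second. For the 23 regulatory members the medians were 0.08 and 0.01, and for all genes 0.0002 and -0.01. Relative to the high mean, the median core member was 0.58 higher in low library 2, and -0.22 and -0.13 in low libraries 1 and 3. The regulatory medians were 0.26, -0.03 and 0.02 in the same libraries. The core was the less precise of the 2 arms, as the median CV over members was 33.2% in low and 6.89% in high for the core, and 15.3% and 4.64% for the regulatory members. Over all genes it was 20.4% in low and 8.52% in high.

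Among the alpha subunits, which form the gate, PSMA7 had the widest spread. It had 275, 651 and 294 CPM in low, against 322, 308 and 374 CPM in high. Low library 2 held 2.29 times the mean of the other low libraries, which lay below every high library. PSMA7 was picked after its values were seen, as was PSMA4, with 101, 185 and 93.6 CPM in low against 100, 98.8 and 103 CPM in high. In PSMA4 low library 2 was far above the high libraries and low library 3 just below them. The log2 differences of PSMA7 and PSMA4 were 0.17 and 0.25 (limma adjusted p = 0.925 and 0.818). PSMA1 was the only core member without overlap. It had 173, 220 and 157 CPM in low, against 146, 155 and 141 CPM in high, with a log2 difference of 0.30 (SE 0.16, limma adjusted p = 0.548) and of 0.16 without low library 2 (adjusted p = 0.273). PSMA6 had 145, 224 and 162 CPM in low, against 147, 142 and 150 CPM in high, and its groups overlapped through low library 1. Its log2 difference was 0.24 (limma adjusted p = 0.702). The other alpha subunits, PSMA2, PSMA3 and PSMA5, had log2 differences of 0.17, 0.02 and 0.13.

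The catalytic beta subunits were also highest in low library 2. PSMB5, which carries the chymotrypsin-like site, had 215, 355 and 236 CPM in low, against 243, 238 and 242 CPM in high. Its high libraries were within a CV of 1.13%, low library 2 lay above them and the other low libraries below them. PSMB6, with the caspase-like site, had 161, 249 and 185 CPM in low, against 181, 192 and 218 CPM in high. PSMB7, with the trypsin-like site, had 247, 439 and 252 CPM in low, against 263, 285 and 318 CPM in high. In both, low library 2 was above and low library 1 below every high library. The log2 differences of PSMB5, PSMB6 and PSMB7 were 0.12, -0.01 and 0.06, with limma adjusted p values from 0.905 to 0.991, and -0.10, -0.19 and -0.21 without low library 2. The sign of PSMB6 depended on the scaling, as it was 0.0048 with log2 values centred on the library medians. PSMB1, PSMB2, PSMB3 and PSMB4, which have no cutting site, ranged from -0.09 to 0.09.

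With low library 2 set aside, 31 of the 44 members did not overlap (70.5%), against 55.1% of all genes. Of these, 10 had low above high (22.7%, against 27.6% of all genes) and 21 had high above low (47.7%, against 27.5%). In that comparison 6 of the 7 constitutive beta subunits had both remaining low libraries below all 3 high ones, against 27.5% of all genes. The same held for 57 of the 62 genes of short transcripts outside the proteasome, and for 2 of the 36 of long transcripts. The exception among the constitutive beta subunits was PSMB6. The log2 differences of the other 6 were then -0.10 (PSMB5) to -0.35 (PSMB3), and limma called none of them. At an unadjusted p below 0.05 there were 3, PSMB2, PSMB3 and PSMB4, and 35.1% of all genes were below it in that fit, 16.9% of all genes as lower in low. Of the 11 non-ATPase subunits of the cap, 7 had both low libraries above all high ones, against 27.6% of all genes. These were the 5 without overlap in the full set and PSMD3 and PSMD12, while PSMD4 and PSMD6 had both below. Of the 6 ATPases 1 was above and 3 were below, and of the 7 alpha subunits 1 was above and 2 were below. All 23 regulatory members together had 9 above (39.1%) and 8 below (34.8%). The 16 core members had 1 above (6.25%) and 9 below (56.2%).

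**Figure D3:**
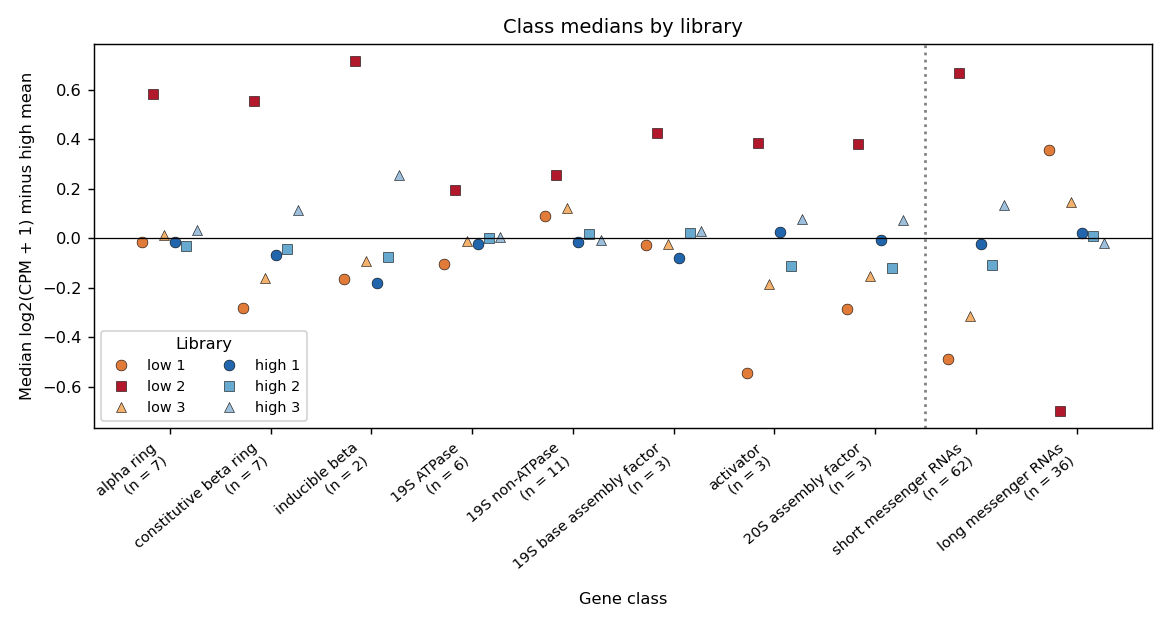
Median over the genes of a class of log2(CPM + 1) minus the high mean (y axis, log2 units), for the 6 libraries, with the gene number of each class under its name. The alpha and constitutive beta rings lie at 0.58 and 0.56 in low library 2, near the 0.67 of the 62 genes with short messenger RNAs, while the 36 genes with long messenger RNAs lie at -0.70.

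The inducible genes of the immunoproteasome, the form in which interferon-induced subunits replace the constitutive catalytic ones, did not separate the groups with all libraries. PSMB9, which replaces PSMB6, had 11.7, 23.7 and 12.1 CPM in low, against 10.0, 12.3 and 15.3 CPM in high. PSMB10, which replaces PSMB7, had 4.59, 8.71 and 4.97 CPM in low, against 5.27, 5.03 and 6.77 CPM in high. Both were highest in low library 2, as their constitutive counterparts were. Within a library, PSMB9 came to 7.24, 9.51 and 6.55 CPM per 100 CPM of PSMB6 in low and to 5.53, 6.40 and 7.03 in high. PSMB10 came to 1.94 ± 0.0676 CPM per 100 CPM of PSMB7 in low and 1.96 ± 0.185 in high (SD, n = 3 each). The ratios of both pairs overlapped between the groups. The log2 differences of PSMB9 and PSMB10 were 0.26 and 0.05, with limma adjusted p values of 0.838 and 0.975.

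PSME1 and PSME2, the interferon-induced subunits of the 11S activator, had their lowest values in low library 1. PSME1 had 42.7, 84.3 and 56.6 CPM in low, against 65.8, 59.6 and 68.1 CPM in high, and PSME2 had 24.9, 49.4 and 27.1 CPM in low, against 35.5, 33.9 and 41.4 CPM in high. Low library 2 was the highest and the other low libraries were the lowest in both genes. Their log2 differences were -0.13 and -0.19 (limma adjusted p = 0.922 and 0.883). Without low library 2 they were -0.38 and -0.49, and limma called PSME2 lower in low (adjusted p = 0.0405) but not PSME1 (adjusted p = 0.103). PSME4, the large activator PA200, was described after its values were seen and had the opposite order. It had 248, 168 and 225 CPM in low, against 183, 175 and 182 CPM in high, so low library 2 was the lowest of all 6. Its log2 difference was 0.23 (SE 0.17, limma adjusted p = 0.703), and 0.39 without low library 2, where limma called it higher in low (adjusted p = 0.0397). In that fit 3 members were called, against 13.6% of all genes. PSME4 was called higher, as were 8.15% of all genes, and PSME2 and PSMC3IP lower, as were 5.48%.

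PSMC3IP, the meiotic recombination factor, had the smallest p of all members. It had 21.7, 14.0 and 23.5 CPM in low, against 32.2, 31.6 and 31.0 CPM in high. All low libraries lay below the high libraries, which had a CV of 1.91%. PSMC3IP averaged 19.8 ± 5.03 CPM in the low and 31.6 ± 0.605 CPM in the high libraries (SD, n = 3 each), a ratio of 0.625. The log2 difference was -0.68 (SE 0.20, limma adjusted p = 0.254) with all libraries, and -0.47 without low library 2 (adjusted p = 0.0264). By the RefSeq annotation, 14 members overlap another gene, among them PSMD1 (HTR2B), PSMB5 (PSMB11), PSMA6 (PRORP), PSMD6 (ATXN7) and PSME1 (EMC9). In 5 members the neighbour is also a gene of the deposited table, namely MLX for PSMC3IP, NBAS for PSMD13, PCGF2 for PSMB3, LCAT for PSMB10 and PTPN2 for PSMG2. With no stated use of strand the reads of such neighbours may not have been told apart.

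With all libraries, the core assembly factors and PSMF1 did not separate the groups. PSMG3 had 49.9, 111 and 54.8 CPM in low, against 60.7, 60.4 and 62.0 CPM in high, and PSMG2 likewise was highest in low library 2. PSMG1 had a log2 difference of -0.08 and PSMF1, known as the inhibitor PI31, one of -0.09, and neither was highest in low library 2. Without low library 2, both other low libraries lay below all high ones in PSMG2, PSMG3 and PSMF1, as in 27.5% of all genes. The log2 differences of these genes were then -0.25, -0.22 and -0.12 (limma adjusted p = 0.134, 0.131 and 0.358).

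The balance of core and regulatory transcripts was then set beside the length index of each library. Summed over members, there were 57.5, 82.8 and 61.0 CPM of core per 100 CPM of regulatory members in low libraries 1, 2 and 3, against 67.3, 65.7 and 72.0 in high libraries 1, 2 and 3. The mean was 67.1 ± 13.7 in low and 68.3 ± 3.27 in high (SD, n = 3 each). With all libraries the groups thus differed by less than the spread between libraries. Low libraries 1 and 3 had a mean of 59.2, and both lay below all 3 high libraries. From the lowest to the highest, the order was low 1, low 3, high 2, high 1, high 3 and low 2. The length index put the 6 libraries in exactly the reverse order, from 0.54 in low library 1 to -1.86 in low library 2. Both measures come from the same libraries, and low library 2 is far from the others in both. The part of transcript length in the balance of core and cap was not tested.

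**Figure D4:**
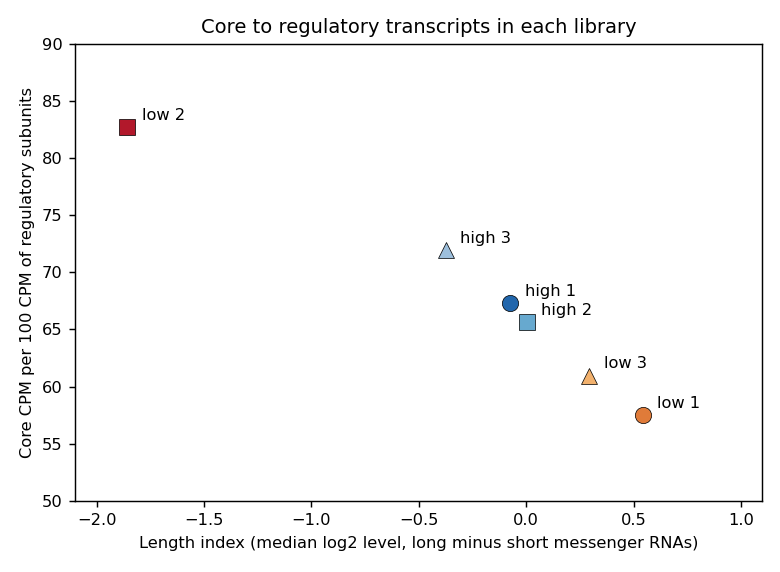
Core CPM per 100 CPM of regulatory members (y axis) against the length index (x axis, log2 units, long minus short messenger RNAs) for the 6 labelled libraries. Low libraries 1 and 3 lie at the lower right, at 57.5 and 61.0, the high libraries between 65.7 and 72.0, and low library 2 at the upper left, at 82.8.

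With the length index as a covariate, limma called 4 members, against 13.2% of all genes (9.09% of the members). PSMD1 (log2 difference 0.52, adjusted p = 0.0178), PSMD7 (0.38, 0.0403) and PSMD13 (0.41, 0.0436) were higher in low, as were 7.2% of all genes. PSMC3IP was lower in low (-0.63, adjusted p = 0.012), as were 5.97% of all genes. At an unadjusted p below 0.05 that model had 32.3% of all genes. No core member was called, and the medians in that model were 0.04 for the core and 0.09 for the regulatory members. The index is itself computed from these libraries, and the model leaves 3 residual degrees of freedom. Low library 2 had an index of -1.86, against -0.37 to 0.54 in the other libraries, so it weighs heavily in the fitted slope. Without low library 2 and without the index, limma called none of PSMD1, PSMD7 and PSMD13 (adjusted p = 0.084, 0.188 and 0.0986). Their log2 differences were then 0.28, 0.21 and 0.28. PSMC3IP was still called in that fit (-0.47, adjusted p = 0.0264).

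No gene that works with the proteasome under another name passed the test with all libraries. Of 13 measured cap, assembly and delivery partners, 7 had a higher and 6 a lower mean log2 level in low, with a median difference of 0.02, and limma called 0. The ubiquitin receptor ADRM1 had 273, 273 and 280 CPM in low, against 279, 277 and 272 CPM in high. The 2 with the smallest p were ZFAND2A, an arsenite-inducible partner of the cap, and TXNL1, a thioredoxin bound to it. ZFAND2A had 51.0, 109 and 55.0 CPM in low, against 42.4, 43.4 and 39.7 CPM in high, without overlap. Its log2 difference was 0.68 (limma adjusted p = 0.419), 0.33 without low library 2 (adjusted p = 0.0559), and 0.59 when the length index was a covariate (adjusted p = 0.0191). The length index model called 1 of these 13 genes, and 13.2% of all genes. TXNL1 had 215, 237 and 216 CPM in low, against 193, 193 and 190 CPM in high, also without overlap (limma adjusted p = 0.554).

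Of 22 measured ubiquitin genes, activating enzymes and shuttle factors, 10 had a higher and 12 a lower mean log2 level in low, with a median difference of -0.04, and limma called 0. UBQLN2, a shuttle, and NPLOC4, a cofactor of the unfolding ATPase VCP, had the smallest p values. NPLOC4 had 140, 88.2 and 132 CPM in low, against 96.6, 99.9 and 83.4 CPM in high, and low library 2 fell within the high range. Its limma adjusted p was 0.613, and 0.0319 without low library 2. The fit without that library called 2 of these 22 genes, and 13.6% of all genes. UBQLN2 had 28.1, 22.6 and 28.4 CPM in low, against 29.5, 29.5 and 37.6 CPM in high (limma adjusted p = 0.593), without overlap.

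Among 13 measured genes of the NFE2L1 axis and other proposed regulators of proteasome genes, 7 had a higher and 6 a lower mean log2 level in low, with a median difference of 0.11, and limma called 0. MAFF, a small MAF protein that pairs with NFE2L1 and NFE2L2, had 31.3, 37.5 and 23.0 CPM in low, against 11.1, 13.5 and 13.0 CPM in high. Every low library of MAFF exceeded every high one, and the log2 difference was 1.20 (limma adjusted p = 0.142). It was 1.04 without low library 2 (adjusted p = 0.0185), and the length index model gave 1.16 (adjusted p = 0.012). KEAP1, the adaptor that directs NFE2L2 to degradation, had 99.2, 108 and 93.7 CPM in low, against 78.9, 77.8 and 67.7 CPM in high (limma adjusted p = 0.268). Its groups did not overlap. The adjusted p was 0.0604 without low library 2 and 0.0399 in the length index model. NFE2L1 itself, named after its values were seen, had 211, 157 and 208 CPM in low, against 161, 168 and 147 CPM in high. Its low libraries 1 and 3 were above the high range and low library 2 inside it (limma adjusted p = 0.613, and 0.0425 without low library 2). Without low library 2 limma called 2 of these 13 genes, and with the length index 4. Those fits called 13.6% and 13.2% of all genes.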

How the data were processed

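Per the labels' protocols, RNA was purified on PicoPure columns with DNase digestion, and NEBNext Ultra II kits were used for the libraries. The submitters' processing notes list DESeq 1.12.1, TopHat2 2.0.8, HTSeq 0.5.4p2, Bowtie2 2.1.0, SAMtools 0.1.18 and Cufflinks 2.1.1, with no role for any. The genome build, annotation, use of strand and filter on low values are likewise not stated there. The authors' deposited table gave CPM for each library and their own log2 fold, p-value and adjusted p-value for each gene. That the unit is CPM was worked out from the values. Up to 1000 CPM, 100% of them came out as whole reads within 0.05 read, against 10% for random values. The lowest mean in the table was 0.737 CPM. All 44 symbols stood in the RefSeq table of assembly ARS-UCD2.0, used for names and neighbours only.

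Low was compared with high over all 9537 genes with limma (version 3.58.1, R version 4.3.3) on log2(CPM + 1), with Benjamini-Hochberg adjustment and no covariate. An exact permutation test of 3 against 3 cannot give a p below 0.1. Alternatives were pseudocounts of 0.5 and 0.1, a filter at a mean of 5 CPM, other scalings, voom, a length index, a replicate block and each library left out. The members, the gene lists, the length index and the tests were chosen with earlier results of these data known. Named genes were the catalytic and inducible subunits, the 8 members of smallest p and, per related list, the 2 of smallest p. The part of that rule on level per coding length was not used, for want of lengths.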

Additional observations from a re-analysis of the deposited data

How the results depend on the processing

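Low library 2 decided the counts. With each library left out in turn, limma called 0 to 1300 genes and 0 to 3 members, 8 to 31 members did not overlap, the core median ranged from -0.19 to 0.23 and the regulatory median from 0.01 to 0.10. The highest counts and lowest medians were those without low library 2. That library alone gave medians of 0.58 for the core and 0.26 for the regulatory members, relative to the high mean, a comparison added after the data were seen. The length index as covariate gave 1256 genes and 4 members. Limma called 10 genes with a pseudocount of 0.5, 7 with 0.1, 7 with the filter at 5 CPM and 7 with centred log2 values, none of them a member; the cause was not tested. Single members turned sign when a library was left out. Their log2 differences then ranged from -0.099 to 0.26 (PSMB5), -0.19 to 0.13 (PSMB6), -0.21 to 0.21 (PSMB7), -0.052 to 0.43 (PSMB9), -0.20 to 0.20 (PSMB10), -0.38 to 0.10 (PSME1), -0.23 to 0.39 (PSMA7) and -0.055 to 0.43 (PSMA4). PSMB6 also turned with centred values (0.0048), and PSMB7 (-0.0043) and PSMB10 (-0.018) with the length index. None of these values was called. Of 360 values for the 24 named genes, 333 kept their sign and side of the threshold, 14 turned sign and 13 became called. None of the 24 was called in the main fit, so a gene could change side only by becoming called. With the replicate block 0 genes were called, the core median was 0.10 and the regulatory median 0.08, and no call changed. Same-numbered libraries deviated with correlations of 0.12, -0.26 and -0.31. With 3 libraries per group, such correlations cannot settle whether the numbers pair them. The edgeR and DESeq2 alternatives were not run.

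The median 95% interval reached 0.54 log2 to each side of the estimate for core members and 0.34 for regulatory ones. PSMB9 and PSMB10 rested on as few as 179 and 92 reads.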
